A study of Mus musculus with 36 samples.

Results

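Endothelial cells, the lining of blood vessels, were picked out of single-cell RNA libraries of mouse submandibular salivary glands. A barcode was counted as an endothelial cell when it carried a unique molecular identifier (UMI, the count of 1 captured transcript) of at least 3 of 8 vessel genes, namely Pecam1, Cdh5, Kdr, Flt1, Egfl7, Plvap, Ptprb and Ly6c1, and no UMI of Krt14, Krt5, Col1a1 or C1qa, which mark basal epithelium, fibroblasts and macrophages. The rule found 868 endothelial cells among 25993 barcodes with 100 or more genes and under 15% mitochondrial UMIs, or 3.34%. Of these, 795 were among 23346 barcodes of 26 Drop-seq libraries and 73 were among 2647 barcodes of 4 CITE-seq libraries, which read RNA and antibody tags from the same cell. The 12 genes of the rule set who is a member, so their levels are given only as a description.

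Each library came from 1 gland. By the crosses the paper describes, all mice carried the Cre recombinase under the Keratin 14 promoter (K14-Cre), which is active in basal epithelium. The crosses also brought in a Cre-dependent yellow fluorescent reporter, R26-EYFP. Double-mutant mice also carried a floxed gain-of-function allele of beta-catenin and a floxed loss-of-function allele of Bmpr1a, and developed gland tumors. The Drop-seq glands were 12 control and 14 double-mutant, from postnatal day 40 (P40; 6 and 7 glands) and P90 (6 and 7 glands), of both sexes. The CITE-seq glands, taken near P70, were 1 male and 1 female control and 2 female double-mutants. Whole-gland RNA came from 1 female control gland at P70 and 1 female double-mutant gland at P100. Controls carry the label wildtype or control. The Cre driver is epithelial, and recombination of the 2 floxed alleles in endothelial cells was not measured. Pooled over glands, a UMI of EYFP was found in 19.7% of Drop-seq endothelial cells and 17.4% of other cells of control glands (median 952 and 2100 UMIs). In double-mutant glands it was found in 7.02% and 6.53% (691 and 1187 UMIs). These 38 double-mutant endothelial cells all lay in glands labelled P40: 13 in B13T40R6F, 10 in B11T40R3M, 7 each in B11T40R2F and B13T40R5M, and 1 in B11T40R1M. The remaining double-mutant glands had none. Among their other cells the share ran from 0% in B11T90R5F to 30.4% in B11T40R3M. In UMIs per 1000000 UMIs of the group (CPM) EYFP stood at 141 against 60.1 in control glands and at 74.4 against 34.8 in double-mutant ones. Its source in endothelial cells was not tested.

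Endothelial cells share a core program in all vessels: VEGF receptors (Kdr, Flt1, Flt4) and the Tie receptors (Tie1, Tek) carry growth signals, VE-cadherin (Cdh5) and claudin 5 (Cldn5) close the junctions, and ETS and SOX factors such as Erg and Sox18 hold the identity. On top of it each vessel type adds its own genes. Capillaries take up fat through Gpihbp1 and Cd36, venules receive leukocytes through the selectins Sele and Selp, and arteries carry the gap junction proteins Gja4 and Gja5. Glands that secrete need fenestrated capillaries, whose diaphragms are made of Plvap.

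The promoters of 4 genes that stood far above all other gland cells in the endothelial cells are shown because each holds the letters CAGGAAG, an ETS-type core, on one strand or the other. These are the selectin Sele at chr1:164047984-164048233 (plus strand, motif 66 bases before the gene start), the guidance receptor Robo4 at chr9:37401722-37401971 (plus strand, 50 bases), the butyrophilin-like gene Btnl9 at chr11:49187090-49187339 (minus strand, 35 bases) and the sialomucin Emcn at chr3:137340828-137341077 (plus strand, 174 bases). Each run is the 250 bases before the gene start as RefSeq gives it in build GRCm38.p6, written 5′ to 3′ in the sense of the gene. Capitals mark the motif, which reads CTTCCTG, its reverse complement, in Btnl9 and Emcn.
Sele: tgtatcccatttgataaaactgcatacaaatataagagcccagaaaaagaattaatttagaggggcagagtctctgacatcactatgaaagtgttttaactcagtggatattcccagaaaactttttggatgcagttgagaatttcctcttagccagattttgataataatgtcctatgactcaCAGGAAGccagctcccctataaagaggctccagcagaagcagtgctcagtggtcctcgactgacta
Robo4: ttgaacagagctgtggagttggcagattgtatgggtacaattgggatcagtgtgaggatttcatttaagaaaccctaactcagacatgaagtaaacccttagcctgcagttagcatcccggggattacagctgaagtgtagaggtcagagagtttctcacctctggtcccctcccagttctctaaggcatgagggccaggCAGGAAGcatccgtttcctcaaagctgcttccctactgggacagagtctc
Btnl9: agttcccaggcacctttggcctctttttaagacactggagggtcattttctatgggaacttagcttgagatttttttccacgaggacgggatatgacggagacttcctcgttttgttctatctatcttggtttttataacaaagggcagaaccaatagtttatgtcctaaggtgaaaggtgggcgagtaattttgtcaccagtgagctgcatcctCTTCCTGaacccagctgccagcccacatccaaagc
Emcn: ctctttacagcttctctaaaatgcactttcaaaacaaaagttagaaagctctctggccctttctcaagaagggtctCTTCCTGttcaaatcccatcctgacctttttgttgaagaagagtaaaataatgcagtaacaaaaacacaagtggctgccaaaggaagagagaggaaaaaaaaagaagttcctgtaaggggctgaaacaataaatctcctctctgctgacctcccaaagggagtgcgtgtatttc
Of the 20 genes with the highest endothelial ratio, 15 had an entry, with 20 promoters in all, of which 6 held the motif and 14 did not, and the 4 shown were picked from those that did. Over the whole table the motif was found in 3554 of 32851 promoters of this length, or 10.8%, so a match describes the letters and no binding was measured.

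The genes of the rule were, by construction, far above the other cells. In the Drop-seq libraries Kdr stood at 808 CPM in endothelial cells against 1.9 in all other cells, Flt1 at 1610 CPM and Pecam1 at 769 CPM, and the 8 marker ratios ran from 171 to 426. A UMI of Flt1 was found in 79.7% of endothelial cells and in 1.1% of the others, and one of Cdh5 in 33.8%. Endothelial cells were shallow, with a median of 764 UMIs against 1527 over all Drop-seq barcodes, so a share of cells with a UMI understates them.

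Genes outside the rule described the same cells. The ratio was 558 for Sele, which was seen in 3.02% of endothelial cells, 550 for the myosin chaperone Unc45b (15.5%), 380 for Robo4 (15.6%), 344 for the tip-cell and angiogenic capillary gene Esm1 (9.94%), 305 for the collagen Col13a1 (20%) and 300 for the endothelial membrane gene Myct1 (22.4%). Fabp4, a fatty acid carrier, stood at 3450 CPM against 20.9 CPM and was found in 77.4% of endothelial cells and 2.1% of the others. The retinol carrier Rbp7 stood at 729 CPM (ratio 285), Gpihbp1, the anchor of lipoprotein lipase, at 396 CPM (264), Emcn at 566 CPM (263) and Tie1 at 234 CPM (254). These ratios are descriptions, since the same cells were chosen on genes that vary with them. Of 2732 genes with 50 or more UMIs in endothelial cells, 242 were at least 20-fold above the other cells and 76 at least 100-fold.

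Several groups of genes stood above the other cells beyond the surface markers. The basement membrane, the sheet on which vessels rest, was represented by Col4a1 at 654 CPM (39.1-fold over the other cells), Col4a2 at 458 CPM (48.6-fold), Hspg2, the perlecan core, at 213 CPM (40.6-fold) and Sparc at 1810 CPM (28.7-fold). The chemokine Cxcl12 stood at 623 CPM against 6.83 CPM, and the interferon-induced GTPase Iigp1 at 735 CPM against 9.05 CPM, with a UMI in 41.4% of endothelial cells and 1.7% of the others. Genes of MHC class I were higher in endothelial cells, with B2m at 3130 CPM (5.90-fold), whereas class II genes were lower, with Cd74 at 236 CPM against 492.8 CPM and H2-Ab1 at 109 CPM against 213 CPM. Leaving out endothelial cells rich in secretory transcripts, described below, brought Cd74 to 418 CPM and H2-Ab1 to 199.8 CPM, near the other cells.

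**Figure D1:**
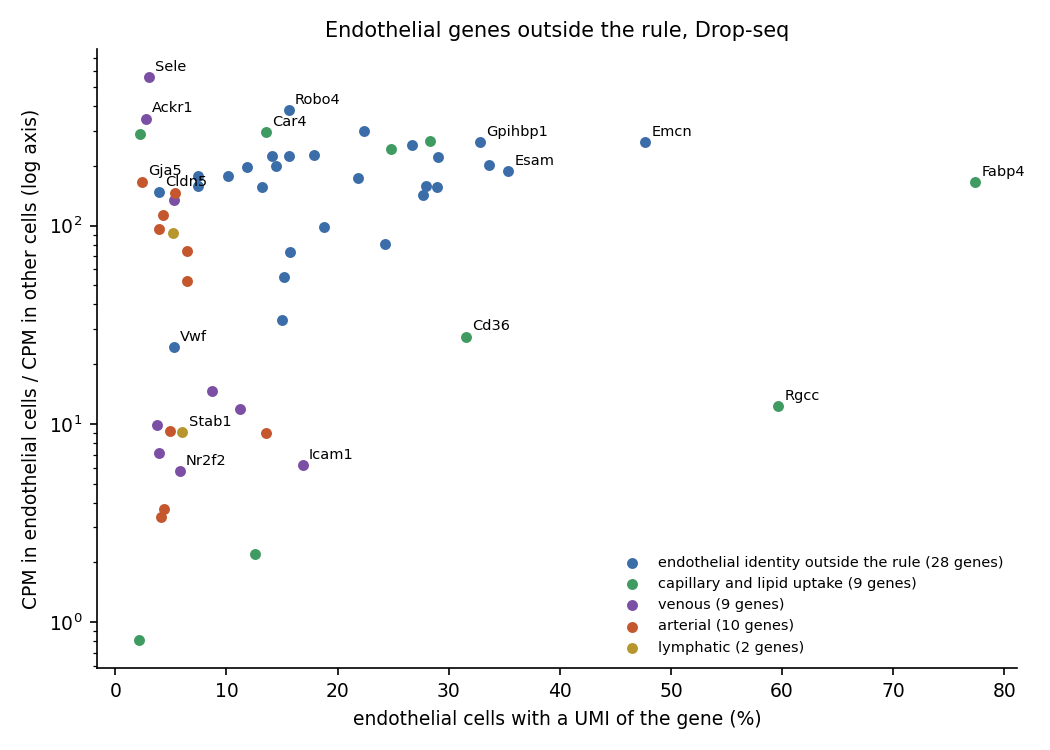
Percent of Drop-seq endothelial cells with a UMI (x axis) against the ratio of CPM in endothelial cells to CPM in all other cells (y axis, log scale) for identity, capillary, venous, arterial and lymphatic genes with 15 or more UMIs, 1 point per gene. Fabp4 lies far to the right at 77.4%, and Sele has the highest ratio, 558, at 3.02%.

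The labels of other cells were low but not at 0. Of the pericyte and smooth muscle genes, Rgs5 stood at 156 CPM in endothelial cells against 3477 CPM in the 83 Drop-seq cells that met a mural gate, and was found in 3.90% of endothelial cells. The gate used Rgs5 itself, with Pdgfrb, Cspg4, Notch3, Kcnj8 and Higd1b, so this contrast follows in part from the choice of mural cells. Esam, an adhesion gene of both, stood at 371 CPM in endothelial cells and 113 CPM in mural cells, while Sparcl1 was at 800 CPM and 2000 CPM. Of all members, 685 had no UMI of Krt8, Krt18, Epcam, Ptprc, Dcn or Rgs5. Lymphatic genes were near absence: Lyve1 had 2 UMIs, Prox1 had 10, and Mmrn1, Ccl21a and Reln had none in 795 cells.

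Depth and foreign transcripts limited what could be read. Endothelial cells held a median of 742 UMIs (range 135 to 28369) and 483.5 genes, 952 UMIs in Drop-seq control cells and 691 in double-mutant cells. The 26 Drop-seq glands gave 2 to 90 endothelial cells each, out of 650301 to 6994504 UMIs per gland. In 86 endothelial cells (9.91%), 52 of control and 34 of double-mutant glands, 30% or more of the UMIs came from 16 secretory genes, and these secretory-rich cells held 45.5% of all endothelial UMIs. No doublet caller was run. The values below that rest on these cells were repeated without them, and their part in a result was not tested otherwise.

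The border of the rule was soft. The 176 barcodes with exactly 3 marker genes had a median of 494 UMIs and 330.5 genes, the 166 barcodes with 2 had 527.5 UMIs and 329.5 genes, and the 46 with all 8 had 1541.5 UMIs. Leaving out the 4 exclusion genes would have added 49 barcodes, 5.34% of the 917 with 3 markers. Among kept barcodes, 21 sequences occurred in more than 1 table (42 barcodes), none of them in 2 members. In 2 libraries the sex genes went against the label. The library B11T40R1M, labelled male, had Xist at 354 CPM and no Ddx3y, and B11T90R5F, labelled female, had Ddx3y at 425 CPM and no Xist, both in endothelial cells. Both came from batch B11, and their stage labels differ, P40 and P90. Whether those stage labels hold was not tested, and values by stage use them as labelled. The tests of share by stage were not repeated without them. In the controls P40 came from batches B12 to B14 and P90 from B7 to B9, so stage and batch cannot be told apart there.

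Vessel types could be seen within the members, although the cells were too shallow to sort each one. The groups below were set after their genes' values were seen, and carry no test. Capillary genes were the most widespread: 467 of 795 Drop-seq cells (58.7%) had a UMI of Gpihbp1, Btnl9, Cd300lg or Car4, and they came from all 26 glands, at 65.0% of control and 55.8% of double-mutant cells. Leaving out secretory-rich cells, Rbp7 stood at 1562 CPM in these cells against 598 CPM in the remaining ones, Fabp4 at 7166 CPM against 3582 CPM, and Rgcc, a complement response gene, at 2748 CPM against 1063 CPM. The clotting factor Vwf ran the other way, at 19.7 CPM against 284 CPM.

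Cells with a UMI of the venular genes Sele, Selp or the chemokine receptor Ackr1 numbered 62 (7.80%) in 21 glands, 6.69% of control and 8.32% of double-mutant endothelial cells. In them Vwf stood at 768 CPM against 32.8 CPM in the rest, the glycoprotein Lrg1 at 1552 CPM against 113 CPM, the venous factor Nr2f2 at 512 CPM against 56.6 CPM, and the adhesion proteins Vcam1 at 320 CPM against 27.4 CPM and Icam1 at 1136 CPM against 239 CPM. Of the genes that set the capillary group, Btnl9 stood at 32.0 CPM against 710 CPM, Car4 at 16 CPM against 275.5 CPM, Gpihbp1 at 368 CPM against 682 CPM and Cd300lg at 256 CPM against 458 CPM, and 16 of these cells had a UMI of one of them. Fabp4 was not lower there, at 6672 CPM against 5888 CPM, and Cxcl12 was at 256 CPM against 1219 CPM.

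Cells with a UMI of the arterial genes Gja5, Sema3g or Stmn2 numbered 68 (8.55%) in 19 glands, 8.27% of control and 8.69% of double-mutant cells. Sox17, a factor of arterial fate, stood at 431 CPM against 104 CPM in the rest, the connexin Gja4 at 389 CPM against 66.8 CPM, Cxcl12 at 2182 CPM against 978 CPM and the flow-induced factor Klf2 at 959 CPM against 592 CPM. Plvap was lower, at 862 CPM against 2668 CPM, and so was Car4, at 13.9 CPM against 280 CPM. Only 1 cell met both the venous and the arterial definition. Cells with a UMI of Esm1 numbered 79 (9.94%) in 19 glands, and 54 of them also had a capillary gene. In the 74 that were not secretory-rich Cxcl12 stood at 1634 CPM against 1037 CPM and Kdr at 1740 CPM against 1345 CPM, and Vwf, Sele, Selp and Ackr1 had a UMI in 0 of 74 cells, which allows up to 4.05% of cells with a UMI and sets no limit on cells that express the gene. A UMI of Prox1, Lyve1, Mmrn1 or Ccl21a was found in 9 cells (1.13%), 5 of control and 4 of double-mutant glands.

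**Figure D2:**
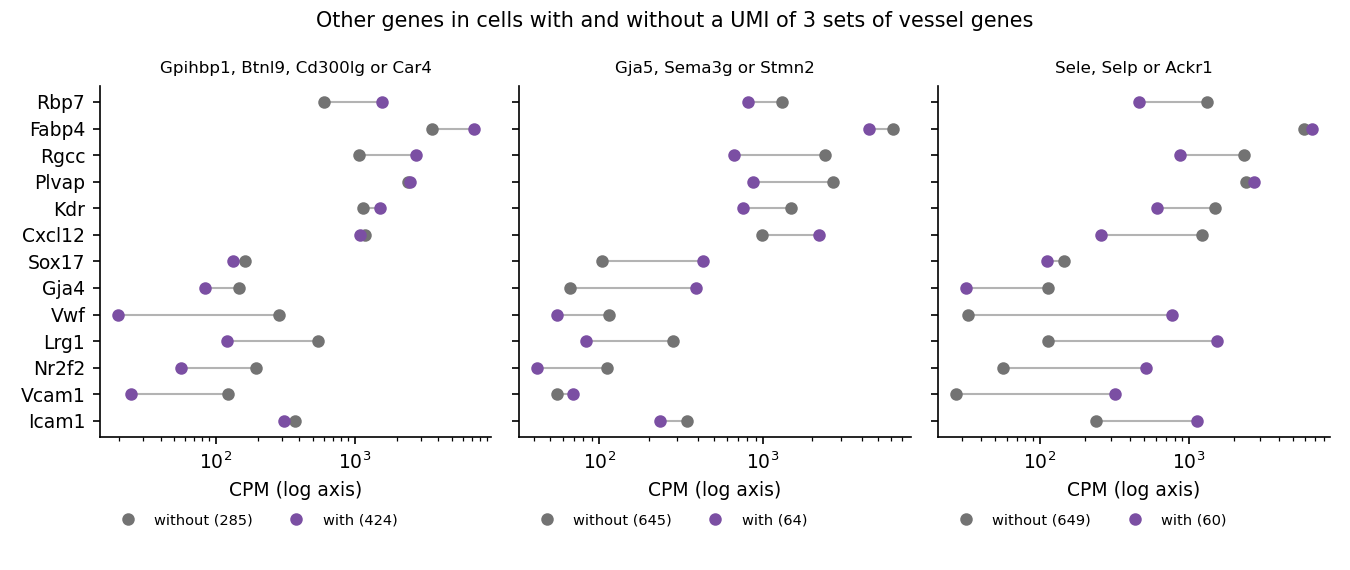
CPM (log axis) of selected genes in Drop-seq endothelial cells that were not secretory-rich, with (purple) and without (grey) a UMI of the capillary, arterial or venous genes, 1 panel each (424 and 285, 64 and 645, 60 and 649 cells). Vwf, Lrg1 and Vcam1 are high in the cells with venous genes, and Cxcl12 and Sox17 in those with arterial genes.

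The share of endothelial cells was compared between genotypes over glands, 1 value per gland. It was 2.34% ± 2.29 (SD, n = 12; lowest 0.288%, median 1.72%, highest 6.98%) of kept barcodes in control glands and 4.47% ± 2.77 (SD, n = 14; 1.41%, 3.98%, 12.6%) in double-mutant glands. The difference was 2.12 percentage points (two-sided permutation test of the means, p = 0.0348), the ranges overlapped widely, and a single double-mutant gland, B13T40R5M, set the upper end. At P40 the share was 2.998% ± 2.95 (SD, n = 6) against 5.67% ± 3.39 (SD, n = 7), and at P90 1.69% ± 1.33 (SD, n = 6) against 3.27% ± 1.36 (SD, n = 7). Both stages had the same direction, but neither passed alone (exact permutation test, p = 0.154 and p = 0.0606).

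The difference in share depended on what it was measured against. Without secretory-rich cells it was 2.35 points (p = 0.0157, permutation test), and without the 2 libraries that went against their sex label 2.20 points (p = 0.0492, permutation test). Measured only among barcodes with under 30% secretory UMIs, the shares were 4.42% and 6.53% and the difference did not pass (permutation test, p = 0.153). Within the 5 batches that held both genotypes the mean difference was 2.38 points (exact permutation test within batches, p = 0.124): −2.82 in B12, 6.02 in B13, 4.38 in B14, 3.72 in B8 and 0.617 in B9. Other stromal cells also differed, with mural cells at 0.260% ± 0.243 (SD, n = 12) and 0.467% ± 0.567 (SD, n = 14), and fibroblasts at 0.516% ± 0.314 (SD, n = 12) and 1.85% ± 0.961 (SD, n = 14), whose part was not tested.

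Leaving out 1 gland at a time gave a difference of 1.496 to 2.55 points, and the permutation p was above 0.05 in 10 of 26 cases, reaching 0.0672. Those glands were B13T40R5M, B11T40R2F, B13W40R3M, B14W40R4F, B14W40R5M, B14T40R7F, B8W90R3M, B8W90R4M, B8T90R3F and B9W90R5M. A mixed model of cell counts with a gland effect gave an odds ratio of 2.40 (95% interval 1.40 to 4.12) for double-mutant glands and 0.510 for male glands. By label, control males had a median share of 0.495% (0.288% to 6.98%) and control females 2.47% (1.23% to 6.32%), double-mutant males 2.95% and females 4.48%. In CITE-seq the shares were 2.92% and 1.08% in the control glands and 3.29% and 4.22% in the double-mutant glands, 2 of each, and were not tested. Between P40 and P90 the share fell by 1.31 points in controls (exact permutation test, p = 0.342, adjusted over the 2 tests 0.342). In double-mutants it fell by 2.40 points (exact permutation test, p = 0.0781, adjusted 0.156).

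**Figure D3:**
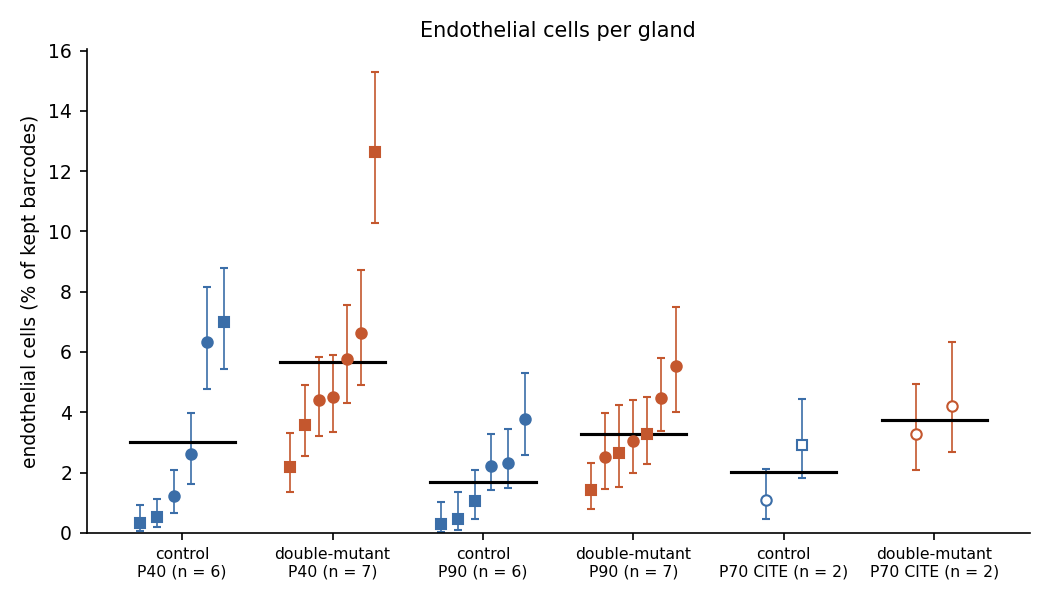
Endothelial cells as percent of kept barcodes (y axis), 1 point per gland with its 95% exact binomial interval, in control (blue) and double-mutant (orange) glands by stage. Squares are glands labelled male, circles female and open symbols CITE-seq, and the black line is the group mean. Control glands run from 0.288% to 6.98% and double-mutant glands from 1.41% to 12.6%, with B13T40R5M at the top.

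Gene levels were compared between genotypes in endothelial cells summed per gland, over the 21 Drop-seq glands with 10 or more members (7 control, 14 double-mutant, 773 cells). The glands left out, B8W90R3M, B8W90R4M, B9W90R5M, B13W40R3M and B14W40R5M, were all controls labelled male. B12W40R2M was the only control labelled male that stayed, and every P90 control in the fit was labelled female. The double-mutant glands were of both sexes, so sex was unbalanced between the genotypes here and in the interaction below. Of 1003 genes tested none passed an adjusted p of 0.05 with edgeR's quasi-likelihood test (0% called in either direction), and 76 were under an unadjusted 0.05 (7.58%; 46 higher, 4.59%, and 30 lower, 2.99%). DESeq2 on the same sums called 9. These 9 genes and the members of lists named here without an adjusted call were chosen after their values were seen.

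Among the 9, Vwa1, a matrix protein of basement membranes, stood at 40.8 CPM (median of 7 control glands, normalised by library; lowest 0, highest 90.7) and at 231 CPM in double-mutant glands (60.4 to 1373). The log2 difference was 3.18 ± 0.70 (SE; edgeR adjusted p = 0.134, DESeq2 0.00963). The groups overlapped between 60.4 and 90.7 CPM. Ace, the angiotensin-converting enzyme of vessel walls, was at 70 CPM (0 to 181) and 285 CPM (101 to 656), a log2 difference of 1.89 ± 0.51 (edgeR adjusted p = 0.149, DESeq2 0.0232). The membrane gene Itm2a was at 122 CPM (0 to 227) and 325 CPM (80.4 to 724), with a log2 difference of 1.58 ± 0.42 (edgeR adjusted p = 0.149). The small nuclear RNA Rn7sk and the ribosomal gene Rps28 had log2 differences of 2.86 and 1.23 in the same direction.

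The 4 genes lower with DESeq2 included 3 of the interferon family. Iigp1 was at 1905 CPM (1430.5 to 2714) in control glands and 1189.5 CPM (73.2 to 2655) in double-mutant glands, a log2 difference of −1.002 ± 0.29 (edgeR adjusted p = 0.245, DESeq2 0.0144). The guanylate-binding protein Gbp4 was at 420 CPM (199 to 726) and 138 CPM (0 to 297), and the tetherin gene Bst2, which holds budding viruses at the membrane, at 546 CPM (453 to 728) and 312 CPM (194 to 458). Their log2 differences were −1.47 ± 0.39 and −0.87 ± 0.22 (edgeR adjusted p = 0.149 for both). Each of these 3 genes had overlapping groups, and in Bst2 the overlap was narrow. The fourth gene, the actin-related Arpc5, was at 476 CPM and 222 CPM.

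The lists were set beside all genes tested, whose median log2 difference was 0.01. Of the 28 identity genes outside the rule 24 were tested, and none was called, 2 were higher at an unadjusted p under 0.05, and the median was 0.36. The 5 receptor genes of the VEGF, angiopoietin and neuropilin families had a median of 0.48 and none under an unadjusted 0.05. Of 12 capillary and lipid genes 7 were tested, with a median of 0.14 and none under 0.05. No gene of the lymphatic and proliferation lists reached the level needed for a test, and of the Wnt list 3 of 15 genes were tested, with a median of 0.44. Axin2, a target of beta-catenin, had 6 UMIs in endothelial cells (5.19 CPM, 5.42 CPM in other cells) and Bmpr1a had 9.

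The basement membrane list had members under an unadjusted 0.05 that were higher, and the interferon list members that were lower. Of 14 basement membrane genes 6 were tested, all 6 had a positive difference (median 0.87) and 3 were under an unadjusted 0.05. Hspg2 went from 132 CPM (0 to 453) to 431 CPM (0 to 1435), a log2 difference of 1.84 ± 0.60, and Col4a1 from 726 CPM (122 to 1063) to 1185 CPM (161 to 3018), 1.05 ± 0.43. Both groups overlapped over most of their range. Of 22 interferon-stimulated genes 10 were tested, 8 had a negative difference (median −0.74) and 4 were lower at an unadjusted 0.05, namely Iigp1, Gbp4, Bst2 and the transcription factor Irf1. Without secretory-rich cells the medians were 0.82 and −0.76, of 6 and 8 tested genes, in a fit where 9.03% of 598 genes were under an unadjusted 0.05. All 12 tested secretory genes had a negative difference (median −1.04), or −0.33 over 8 genes without the secretory-rich cells.

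Cxcl12 was at 543 CPM (363 to 1389.9) in control and 1211.5 CPM (377 to 2178) in double-mutant glands, a log2 difference of 0.95 ± 0.34 (edgeR adjusted p = 0.415). The venular gene Lrg1 had a difference of 1.90 ± 0.69 and Mcam, an adhesion molecule of vessels, 1.93 ± 0.64. None of the 3 passed the adjusted threshold. All 16 immediate early genes were tested, 13 had a negative difference (median −0.27) and Fosb (−0.75 ± 0.25) and Atf3 (−1.11 ± 0.41) were under an unadjusted 0.05.

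Between P40 and P90, with genotype as a term, 4 of 1003 genes passed, 2 higher and 2 lower at P90 (0.199% each). Cebpb, a stress and inflammation transcription factor, was at 20.1 CPM (0 to 124; 5 of 11 glands at 0) at P40 and 180 CPM (0 to 635) at P90, a log2 difference of 2.89 ± 0.63 (edgeR adjusted p = 0.0441). The pseudogene Rps19-ps9, whose reads may be shared with Rps19, had a difference of 3.81 ± 0.84. The secreted salivary gene Bpifa2 fell by 5.99 on the log2 scale and BC048546 by 4.47. Both were at 0 in the median P90 gland, and Bpifa2 reached 63352.6 CPM in 1 P40 gland. Leaving out 1 gland at a time gave 0 to 13 genes. Cebpb lost its call in 12 of the 17 fits in which it had a value, and Rps19-ps9 in 12 of 17. Bpifa2 lost its call in 13 of 21 and BC048546 in 13 of 20. None of the 4 genes passed without the secretory-rich cells, where 0 were called. The secretory list had 12 tested genes, 1 called lower, 4 lower at an unadjusted p and a median of −1.73 (0.00 over all genes), and its part was not tested otherwise. Over all genes 7.18% were higher and 3.89% lower at an unadjusted p. All 3 tested haemoglobin genes were lower at an unadjusted p, by 4.87 to 6.38. Their UMIs lay mostly in 4 glands labelled P40 (772 in B11T40R1M, 639 in B13T40R5M, 247 in B13T40R6F and 133 in B12W40R1F). In these, 1, 3, 1 and 1 endothelial cells held UMIs of at least 2 haemoglobin genes. The first of them, B11T40R1M, went against its sex label. The genotype difference between stages was called in 0 of 1003 genes (30 under an unadjusted 0.05, 2.99%), and by DESeq2 in 0.

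The genotype difference in endothelial cells was next compared with that in all other cells of the same 21 glands, as an interaction within each gland. This asks whether a gene's level moved in endothelial cells as it did in the sum of the cells around them. That sum mixes many cell types, so a change in their shares moves its values as well. The other cells were all kept barcodes outside the rule, so any endothelial cells that the rule missed count among them. Over all libraries, 871 kept barcodes without an exclusion gene had 1 marker gene and 166 had 2. The part of such barcodes in the values of the other cells was not tested. Of 10891 genes tested 38 had a lower difference in endothelial cells (0.349%) and 0 a higher one (7.56% were under an unadjusted 0.05, 2.61% higher and 4.95% lower; DESeq2 called 17). The other cells themselves had 211 genes higher in double-mutant glands and 13 lower, of 12330 (1.71% and 0.105%), and all 37 interaction genes with a value there had a positive difference. Of the 38, 21 were also called higher in the other cells, and in 31 the CPM in endothelial cells was at or above that in the other cells. Leaving out 1 control gland gave 10 to 40 called genes, all lower except 1 of the 40 without B9W90R6F. The count was 10 without B14W40R4F, 17 without B14W40R6F, 22 without B7W90R2F, 24 without B12W40R1F and 25 without B7W90R1F. Leaving out secretory-rich cells gave 16, of which 15 were among the 38. Without the 2 libraries against their sex label the count was 30. In other settings some genes were called higher. With only members without a UMI of Krt8, Krt18, Epcam, Ptprc, Dcn or Rgs5, 5 were higher and 27 lower (449 and 427 at an unadjusted 0.05). With no filter on low counts, 4 were higher and 63 lower.

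Interferon-stimulated genes, which cells switch on when they sense interferon, made up 8 of the 38. All 22 genes of that list had a negative interaction (median −1.504, against −0.02 over all genes), 19 at an unadjusted 0.05. In the other cells 10 of 22 were called higher in double-mutant glands, with a median of 1.30 against 0.04 over all genes. The paper reports more immune cells in double-mutant glands and describes macrophages that express Isg15, Rsad2 and Irf7. The part of immune cells in the values of the other cells was not tested. Each of the genes below was higher in endothelial than in other cells in both genotypes, by the median gland.

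Isg15, a ubiquitin-like protein induced by interferon, was at 397 CPM (184 to 882) in control and 225 CPM (73.2 to 635) in double-mutant endothelial cells. In the other cells it was at 11.9 CPM (6.93 to 20.8) and 34.0 CPM (12.5 to 110). The interaction was −2.45 ± 0.39 (log2 ± SE; edgeR adjusted p = 6.12e-05). All 7 control endothelial values lay above every value of the other cells.

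Ifit3, an interferon-induced RNA-binding protein partner, was at 126 CPM (40.9 to 286) in control and 50.8 CPM (0 to 172; 3 glands at 0) in double-mutant endothelial cells. In other cells it was at 1.10 CPM (0.406 to 1.68) and 5.01 CPM (2.26 to 21.3), and those groups did not overlap. The interaction was −3.63 ± 0.65 (edgeR adjusted p = 0.000511).

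Bst2 stood in other cells at 30.5 CPM (20.8 to 45.8) and 52.0 CPM (28.4 to 117), beside the endothelial values given above (interaction −1.74 ± 0.36, edgeR adjusted p = 0.00738). Iigp1 was at 8.42 CPM and 15.3 CPM in other cells (interaction −2.07 ± 0.43, adjusted p = 0.00755). Irf1, which turns on many of these genes, was at 862 CPM (475 to 1346) and 545 CPM (73.2 to 1211) in endothelial cells and at 68.1 CPM (55.6 to 115) and 135 CPM (71.3 to 181) in the others (interaction −1.48 ± 0.36, adjusted p = 0.0358). The GTPase Igtp (−1.96 ± 0.45) and Ifit1 (−2.25 ± 0.53) were called as well. Rsad2, the antiviral viperin, was at 453 CPM and 478 CPM in endothelial cells, and at 4.39 CPM and 15.4 CPM in the others (interaction −1.82 ± 0.47, adjusted p = 0.0493). Taken alone, the other cells were called higher for Isg15, Ifit3, Ifit1, Irf1 and Rsad2 and not for Bst2, Iigp1 and Igtp, and with edgeR none of the 8 was called in endothelial cells, where DESeq2 called Iigp1 and Bst2 lower. Without secretory-rich cells 7 of the 22 interferon genes were called, with a median of −1.61, and Rsad2 was lost (adjusted p = 0.0948).

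**Figure D4:**
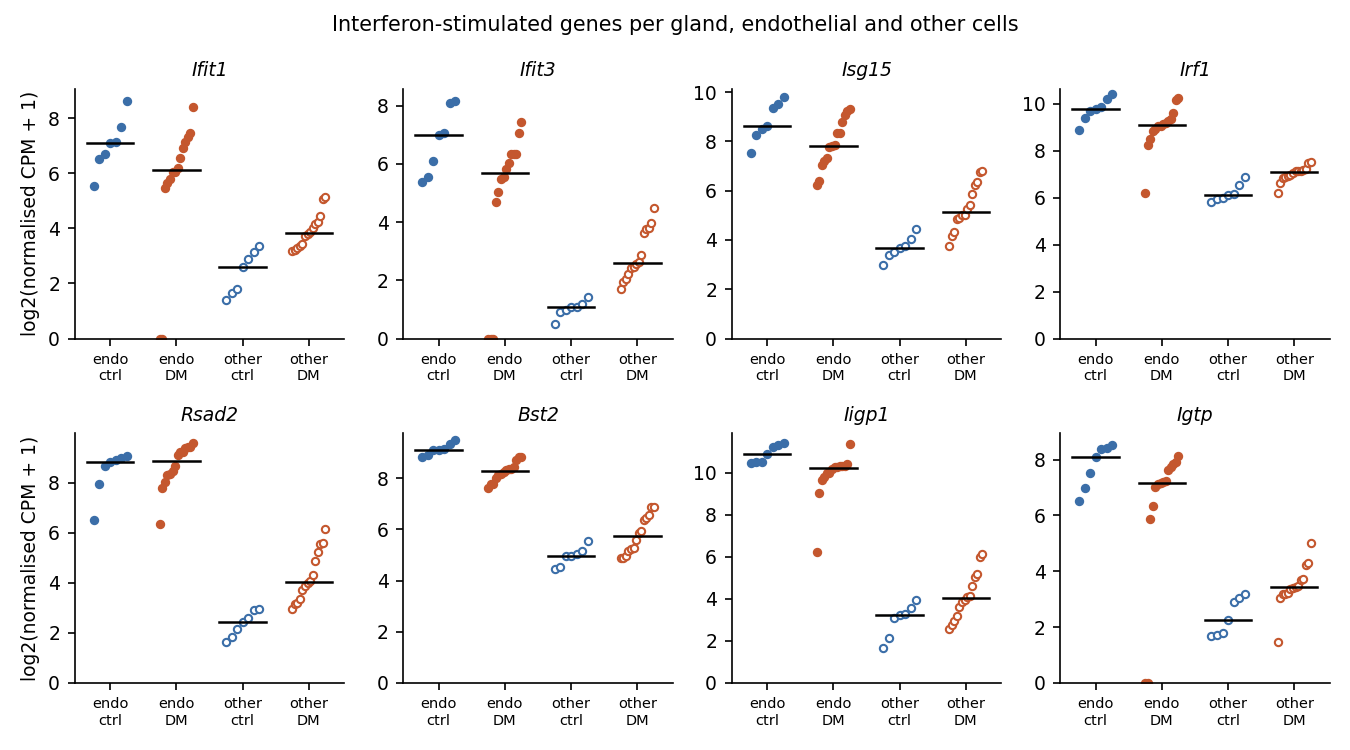
Log2 of (normalised CPM + 1) of 8 interferon-stimulated genes, 1 point per gland, in endothelial cells (filled) and other cells (open) of 7 control and 14 double-mutant glands, with the median as a black line. Endothelial points lie above the open ones in nearly all glands, and from control to double-mutant the median of the open points rises in all 8 genes while that of the filled points falls in all but Rsad2.

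The largest interactions were in genes with few endothelial UMIs. Among genes at or above their level in other cells, Igf2, a fetal growth factor, had −8.14 (20 UMIs in endothelial cells), the clotting factor gene F10 −5.26 (9), Prox1 −5.13 (10), the complement protease C1s1 −4.40 (11), the sulfatase Sulf1 −3.80 (20), the complement inhibitor Serping1 −3.39 (18), the retinoic acid hydroxylase Cyp26b1 −3.18 (73), the matrix proteoglycan Bgn −3.16 (37) and Rgs10 −3.13 (22). In the other cells Igf2, F10, Prox1, Sulf1, Serping1 and Bgn were called higher in double-mutant glands, C1s1 and Rgs10 were not, and Cyp26b1 was not tested. Without secretory-rich cells the interactions of F10, Serping1, Cyp26b1, Bgn and Rgs10 did not pass (adjusted p = 0.0559 to 0.433). Of these genes Igf2 alone kept its call whichever control gland was left out. Prox1 and Sulf1 each lost it in 5 of 7 cases, and the value of Prox1 was −3.23 without B12W40R1F, that of Sulf1 −2.63 without B12W40R2M and that of Bgn −2.09 without B14W40R4F. Of 10 fibroblast genes 3 were called higher in the other cells (median 1.75), and of 12 immune genes 1 (median 1.24). The share of fibroblasts among the other cells, given above, moved with genotype, and its part in these interactions was not tested.

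Some genes rich in endothelial cells behaved likewise. Igfbp7, a vessel-wall binding protein of growth factors, was at 1372 CPM (407 to 5493) in control and 2317 CPM (1152 to 7449.8) in double-mutant endothelial cells, and at 18.1 CPM and 64.0 CPM in the others (interaction −1.72 ± 0.41, edgeR adjusted p = 0.0277). Mgp, the matrix Gla protein, was at 612 CPM and 491 CPM in endothelial cells and at 15.96 CPM and 131 CPM in the others (−2.33 ± 0.49, adjusted p = 0.00755). Gata2, a factor of vessels and blood, was at 136 CPM and 199 CPM in endothelial cells and at 0.431 CPM and 5.55 CPM in the others (−2.79 ± 0.65, adjusted p = 0.0266). All 3 genes were called higher in the other cells of double-mutant glands (edgeR adjusted p = 0.0421, 0.0123 and 0.00725) and none was called in endothelial cells. Without secretory-rich cells the interaction of Igfbp7 (adjusted p = 0.0516) and Mgp (adjusted p = 0.0559) did not pass.

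The CITE-seq glands gave a small second view near P70, with 22 and 22 endothelial cells in the double-mutant glands and 21 and 8 in the controls, one of which was male. Of 185 genes tested 5 were higher (2.7%) and 11 lower (5.95%) in double-mutant cells, and 9.73% were higher and 17.3% lower at an unadjusted 0.05. Cxcl12 was at 3616 CPM and 1974 CPM in the 2 double-mutant glands and at 981 CPM and 642 CPM in the 2 control glands, a log2 difference of 1.82 (edgeR adjusted p = 0.0340). Both double-mutant values lay above both control values. The Drop-seq difference of Cxcl12 was 0.95, in the same direction and not past its threshold. Leaving out 1 gland gave 35 genes (without the first double-mutant gland), 6 (without the second), 2 (without the male control) and 1 (without the female control). Ier3 was called in all 4 cases, and Cxcl12 in the 2 that kept both controls. In each of these fits 1 genotype had a single gland, which was assumed to vary like the other genotype's glands.

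Gpihbp1 was lower, at 575 CPM and 352.5 CPM against 1636 CPM and 1713 CPM (−1.64). The surface gene Ly6a was at 2054 CPM and 1410 CPM against 4335 CPM and 5567 CPM (−1.28), and Ifitm3, an interferon-induced membrane protein, at 1972 CPM and 1410 CPM against 4171 CPM and 5139 CPM (−1.23, edgeR adjusted p = 0.0351). Each of the 3 genes had both control glands above both double-mutant glands, and each lost its call in 3 of the 4 fits with 1 gland left out. Of the immediate early genes, which answer stress and handling, 10 were tested, all 10 had a negative difference (median −1.51) and 2 were called, Ier3 and Btg2. The genes called lower also held 5 secretory genes, Spt1, Prol1, Scgb2b26, Car6 and Pip, and the median secretory share of UMIs was 7.06% in control and 1.76% in double-mutant endothelial cells, whose part was not tested.

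Surface proteins were read in the same 73 cells with antibody tags, as the percent of all antibody counts in a gland's endothelial cells against its other cells. Of 61 antibodies 7 were higher (11.5%) and 43 lower (70.5%) in endothelial cells with edgeR on the total counts, with a median log2 difference of −1.05 and 82% under an unadjusted 0.05. With other scalings 8 to 10 were higher and 2 to 5 lower, with a median of −0.13 (TMM) and −0.01 (immunoglobulin control antibodies), so most of the lower calls depended on the scaling. Of the 8 lowest by total counts, 6 (Trop2, Delta_Like_4, SIRPa_CD172a, CLEC9A_DNGR1_CD370, CD11c and CD8) were not called with TMM or with the immunoglobulin controls.

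Ly6C made up 7.25% and 3.71% of the antibody counts of endothelial cells in the double-mutant glands and 12.1% and 9.36% in the controls, and 0.361% ± 0.0367 (SD, n = 4) in the other cells, a log2 difference of 4.37 ± 0.51. The transcript Ly6c1 was in the rule, so this antibody is not independent of the choice of cells. CD38, an enzyme of NAD metabolism on the cell surface, made up 13.8% and 10.3% in the double-mutant and 26.2% and 18.4% in the control glands, against 1.10% ± 0.369 (SD, n = 4) in other cells (3.94 ± 0.52). CD29, the integrin beta-1 chain that binds basement membrane, made up 14.999%, 22.8%, 19.3% and 19.1%, against 1.69% ± 0.406 (SD, n = 4) (3.51 ± 0.51). All 4 glands had the endothelial value far above the other one, for each of these 3 proteins.

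Ly6A_E (Sca-1) was at 5.25% ± 2.04 (SD, n = 4) against 0.595% ± 0.156 (3.09 ± 0.47), CD54 (ICAM-1) at 2.01% ± 0.500 against 0.718% ± 0.236 (1.501 ± 0.40) and the antibody labelled PDCA1_CD137 at 1.22% ± 0.952 against 0.256% ± 0.0470 (1.96 ± 0.37). The rise of PDCA1_CD137 was uneven between glands. It stood at 0.350% against 0.318% in B15T70R1F and at 2.56% against 0.265% in B15T70R2F. CD24 had the smallest rise, 0.84 ± 0.40 (edgeR adjusted p = 0.0442), and lost it when any of 3 glands was left out. The transcripts of CD38, CD29 and Ly6A_E were also higher in the same cells. Cd38 stood at 231 CPM against 2.3 CPM in others, Itgb1, the gene of CD29, at 578 CPM against 141.5 CPM, and Ly6a at 2867 CPM against 123 CPM. Transcripts of the other raised antibodies are not given here.

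Under every scaling 2 antibodies were lower. CD11b, an integrin of myeloid cells, made up 0.0339% ± 0.0318 (SD, n = 4) of the endothelial counts and 0.511% ± 0.295 of the others (−3.84 ± 0.38, and −2.95 with TMM), and IAIE_MHC, which reads MHC class II, 1.32% ± 0.688 against 12.9% ± 5.45 (−3.36 ± 0.50, and −2.44 with TMM). EpCAM, an epithelial protein, was at −1.05 by total counts and at −0.12 with TMM.

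**Figure D5:**
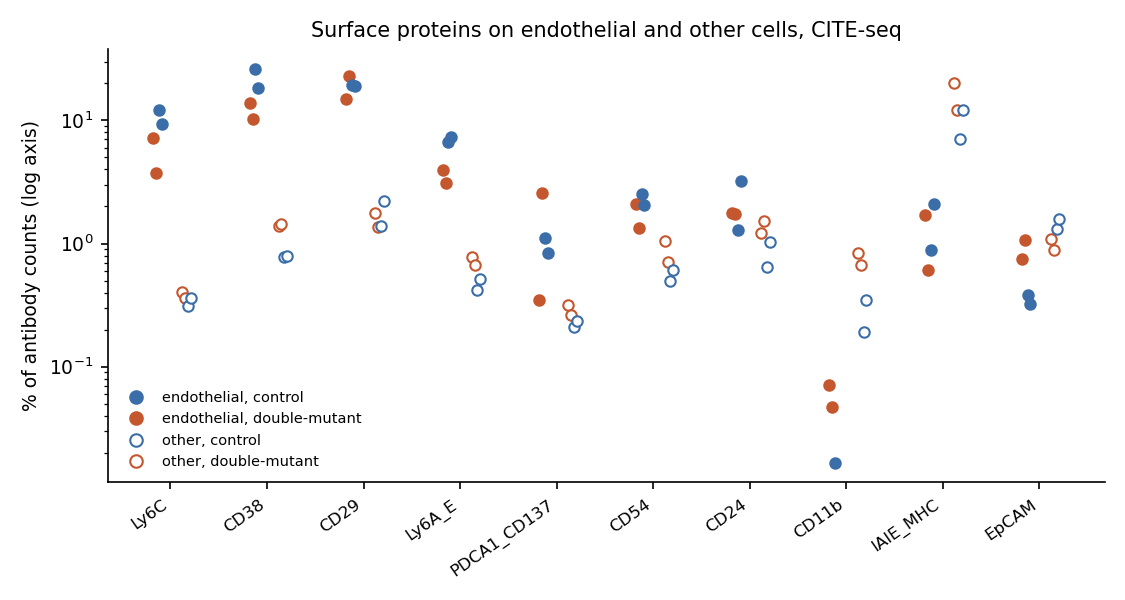
Percent of a gland's antibody counts (log axis) for the antibodies that differed, in endothelial (filled) and other (open) cells of the 4 CITE-seq glands. Ly6C, CD38 and CD29 lie far above the other cells in all 4 glands, and CD11b and IAIE_MHC below. The CD11b value of 0 in the female control gland cannot be drawn on a log axis.

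The whole-gland RNA libraries had no replicates and came from unlike ages. In such tissue fewer endothelial cells and less RNA per cell cannot be told apart. Of the 28 identity genes 27 had 10 or more counts in both libraries, and their median log2 ratio of transcripts per 1000000 (TPM) was −0.35, with 0 over 2-fold higher and 2 over 2-fold lower, against −0.29 over 13276 genes (3.5% higher, 7.46% lower). Pecam1 was at 1.76 TPM in the control and 1.51 TPM in the double-mutant library, Cdh5 at 1.123 and 0.997 TPM, Kdr at 0.76 and 0.65 TPM and Plvap at 4.76 and 4.11 TPM. The interferon list had a median of 0.39 and the basement membrane list −0.69.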

How the data were processed

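The authors sorted live single cells of dissociated glands, fixed them in methanol for Drop-seq or used them fresh for CITE-seq, and made UMI counts per gene and barcode with the Drop-seq tools (mm10, GENCODE annotation with Cre and EYFP added). The deposited tables used here hold raw counts of RNA, counts of antibody tags (whether UMIs or reads was not given in the sources used here) and, for 2 whole-gland libraries, counts of reads per gene made with STAR and featureCounts on mm10 (34515744 and 34729551 counts). The human spike-in cells of CITE-seq had been removed. In all, 30082 barcodes were in the tables and 25993 had 100 or more genes and under 15% mitochondrial UMIs.

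The members, the gene lists and the comparisons were chosen with earlier results of these data known. Counts were summed over endothelial cells per gland, glands with under 10 were left out, and genotype and stage were tested with edgeR's quasi-likelihood test (TMM, Benjamini-Hochberg adjustment, threshold 0.05, low counts filtered by filterByExpr), with sex as a further term. The 12 rule genes entered no test. The interaction used paired sums of endothelial and other cells per gland, and antibodies were tested in the same way. DESeq2, other scalings, filters, member rules and glands left out were alternatives. Shares were compared by permutation tests of gland values and a binomial mixed model. Of these steps, only the genotype comparison and the paired antibody comparison were tested on simulated data. In the gene comparisons the rule named, among genes past the threshold, the 12 largest changes each way (genotype), 6 (stage) or 10 (interaction) among genes at or above their level in the other cells, plus 4 of the rest, together with members of fixed lists. Every antibody past the threshold, or the 8 largest each way, was named. The binomial intervals of the shares cover counting error only, while the interval of the odds ratio comes from the mixed model with a gland effect. The labels do not say that glands of a group came from separate litters, so p-values measure the spread between these glands. Promoters came from the RefSeq tables for GRCm38.p6. Tools were R 4.3.3, edgeR 4.0.16, limma 3.58.1, DESeq2 1.42.0, lme4 1.1.37, pandas 2.3.3, numpy 2.4.6, matplotlib 3.10.9 and scipy 1.17.1 under Python 3.11.15.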

Additional observations from a re-analysis of the deposited data

Results flagged for a closer look

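Among 86 groups of gland values, 23 held a gland far from the others, where chance gives about 1 in 20. For the median UMIs of endothelial cells these were B14W40R5M with 24505 (next gland 2571), B8W90R4M with 3664.5 (1185) and B11T40R3M with 3530 (1211). For the percent of secretory-rich endothelial cells they were B8W90R3M with 100% (25%), B11T40R3M with 52.4% (13.5%) and B13T90R7F with 11.8% (5%). B13T40R5M had an endothelial share of 12.6% (next 6.62%).

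In normalised CPM, the control P40 glands that stood apart were B14W40R6F, at 1905 for Iigp1 and 227 for Ptgs2, B14W40R4F, at 204 for Igf2, and B12W40R1F, at 40.9 for H19. Among double-mutant P40 glands, B13T40R5M stood at 2178 for Rn7sk and 74.2 for Igf2, B13T40R6F at 16.2 for Sulf1, B11T40R1M at 95.6 for Rgs10 and B11T40R3M at 59.6 for Col3a1. Among double-mutant P90 glands, B9T90R4F stood at 732 for Bpifa2 and 1025 for Rps19-ps9, B11T90R5F at 343 for Cyp26b1, B12T90R6M at 262 for Bgn and 131 for Col3a1, and B8T90R2M at 106 for both Rgs10 and Ptgs2. In 5 of these groups (H19, Sulf1, Rgs10 and Ptgs2 in B8T90R2M, and Col3a1 in B12T90R6M) every other gland was at 0, so 1 gland with a UMI was enough to stand apart.

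The genotype difference in endothelial cells was below that in the other cells for 38 genes by the interaction test. Those named by the rule were Igf2 (−8.14), F10 (−5.26), Prox1 (−5.13), C1s1 (−4.40), Sulf1 (−3.80), Ifit3 (−3.63), Serping1 (−3.39), Cyp26b1 (−3.18), Bgn (−3.16) and Rgs10 (−3.13), and, among genes lower in endothelial cells than in the others, H19 (−10.16, on 2 endothelial UMIs), Ptgs2 (−5.30), Tnf (−4.88) and Col3a1 (−3.97). Without B12W40R1F the value of H19 was −6.09, and without B14W40R6F that of Ptgs2 was −2.81, neither past the threshold.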

How the results depend on the processing

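Depth and the number of glands limited these results: 1003 genes could be tested in 773 cells, and genes under the filter were not. The genotype comparison called 0 genes, and 0 with RLE scaling, with the number of cells as a covariate, with 4 or more markers, without cells with other cells' genes, after thinning, without the 2 libraries against their sex label, without B9T90R4F and without secretory-rich cells. It called 9 with DESeq2, 22 with no filter, 8 with the replicate number as a block, 7 and 1 with at least 5 and 20 cells per gland, 5 with batch, 1 each at P40 and P90 alone, and 0 to 3 with 1 gland left out (3 without B11T40R3M). Between groups, same-numbered pairs of glands had a median r of 0.049 (7 of 24 over 0.1) and different-numbered pairs −0.015 (25 of 135 over 0.1). The difference was not tested, and the main fits did not pair glands by replicate number.

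For P90 against P40 the count was 4, and 28 with DESeq2, 3 with RLE, 87 with no filter, 7 with the replicate block, 9 with the number of cells, 2 and 3 with 5 and 20 cells, 0 with 4 markers, without other cells' genes or without secretory-rich cells, 3 after thinning, 5 without the 2 libraries, 1 without B9T90R4F, and 0 to 13 with 1 gland left out. For the interaction with other cells the count was 38, and 28 with RLE, 67 with no filter, 32 without other cells' genes, 17 with DESeq2, 30 without the 2 libraries, 16 without secretory-rich cells and 10 to 40 with 1 control gland left out. Double-mutant glands were not left out singly there. Calls of a higher difference came with no filter (4), without other cells' genes (5) and without B9W90R6F (1), and all other calls were of a lower one. The genotype difference between stages gave 0, and 16 with no filter.

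In CITE-seq the count was 16, and 6 with DESeq2, 12 with no filter, 22 with RLE, 26 with the replicate block and 1 to 35 with 1 gland left out. The antibody count was 50, and 11 with TMM, 10 with the immunoglobulin controls, 15 with DESeq2 and 35 to 48 with 1 gland left out. The difference in share lost its call against low-secretory barcodes (2.11), at P40 (2.67) or P90 alone (1.58) and within batches (2.38), and gave 1.496 to 2.55 with 1 gland left out. The fall between stages in double-mutant glands passed after thinning of barcodes to 500 UMIs (−2.65, exact permutation test, adjusted p = 0.0455, against 0.156 before). That step left out barcodes with fewer UMIs, 2624 of 12603 in double-mutant glands and 351 of 10743 in control glands. Alternatives without secretory-rich cells, with the low-secretory denominator and with 1 gland left out in Drop-seq were chosen after seeing the data. Among single named genes, 558 values stayed on their side of the threshold, 206 lost their call and 20 gained one. The causes were not tested.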

Other observations

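Few endothelial cells carried transcripts of the cell cycle. A UMI of a proliferation gene was found in 4 of 254 control endothelial cells (1.57%, in 4 glands) and in 12 of 541 double-mutant ones (2.22%, in 9 glands), against 1.93% and 3.53% of the other cells. Median depths were 952 and 691 UMIs in endothelial cells and 2100 and 1187 in the others, so these shares were not compared further.

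Pooled over glands, EYFP was found in 29.9% of the other control cells that had a UMI of Krt14 and in 9.30% of the double-mutant ones. Without secretory-rich cells, 19.3% of control and 6.11% of double-mutant endothelial cells had a UMI of it. In the libraries B11T90R5F and B14W40R5M no cell had one. Whether the mice of these 2 libraries carried the reporter was not tested.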
